A study of Mus musculus with 2 samples.

Results

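Nonsense-mediated decay transcripts are RNA isoforms classed by an annotated stop codon well before the last exon junction. In these hippocampal libraries 2061 of them were present. They were selected on measured values: the annotation class had to be nonsense-mediated decay, and the TPM (a transcript level scaled for length and sequencing depth) had to reach 1 in both alignment-free tables. Of 7186 transcripts annotated with this class among 141767 transcripts in all, 2061 (28.7%) passed, against 29.6% of all transcripts. The members lay in 1695 genes, of which 1399 held 1 member and 296 held several, up to the 6 of Rbm39.

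The RNA came from hippocampus (layer of hippocampus tissue) of 5xFAD/CAST mice, adult males of 8 to 10 months. 5xFAD animals carry a human APP transgene with familial Alzheimer disease mutations under a Thy1 promoter that is active in neurons. Ribosomal RNA was depleted from 300 ng of total RNA per library, and ERCC spike-in RNAs were added. The group comprised 2 libraries, labelled as biological replicates but with a common donor identifier, so the SD between them may be technical. With 1 group there was no comparison between conditions.

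In nonsense-mediated decay, a ribosome that stops well before the last exon junction of an mRNA leaves an exon junction complex downstream, and UPF1 with the SMG proteins then directs the mRNA to degradation. Cells use the pathway to remove faulty mRNAs. They also use it to regulate normal genes, above all genes of splicing factors, which splice a poison exon or an unproductive intron into their own transcripts when the protein is abundant. The steady level of such a transcript depends on both how often it is made and how fast it is degraded, and these libraries measure only the level.

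The annotated stop is what defines each of these transcripts, so the coding bases that run up to it are shown, 5′ to 3′, for the SR proteins (serine and arginine rich splicing regulators), whose poison exons are the textbook case. Letters are the GENCODE M21 transcript sequences of the mm10 reference (not reads of these mice), and the stop codon is in capitals. The stretches are the last 30 to 120 coding bases.
Srsf9-205: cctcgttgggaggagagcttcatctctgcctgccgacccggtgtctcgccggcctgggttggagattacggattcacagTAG
Tra2a-202: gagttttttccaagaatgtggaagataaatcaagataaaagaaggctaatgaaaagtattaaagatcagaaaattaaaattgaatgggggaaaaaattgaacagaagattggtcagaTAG
Tra2b-206: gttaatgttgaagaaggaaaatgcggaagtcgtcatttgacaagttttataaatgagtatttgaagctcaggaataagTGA
Srsf3-201: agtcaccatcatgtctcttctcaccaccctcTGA
Srsf6-201: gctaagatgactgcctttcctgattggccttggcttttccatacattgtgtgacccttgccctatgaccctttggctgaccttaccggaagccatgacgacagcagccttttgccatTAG
Srsf4-203: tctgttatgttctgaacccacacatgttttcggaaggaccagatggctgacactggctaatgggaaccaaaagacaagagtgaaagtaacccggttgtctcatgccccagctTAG
Srsf7-203: aggtttcttcgtttgagtcagtcgcctTGA
Srsf11-206: gctgaagttcttttccctggttcagccTGA
The part of each stretch inside the exon that holds the stop lay at chr5:115328347-115328428 (plus strand) for Srsf9-205, chr6:49252965-49253084 (minus strand) for Tra2a-202, chr16:22259181-22259261 (minus strand) for Tra2b-206 and chr17:29039454-29039487 (plus strand) for Srsf3-201. For Srsf6-201 it was chr2:162932847-162932966 (plus strand), for Srsf4-203 chr4:131884276-131884390 (plus strand), for Srsf7-203 chr17:80205054-80205081 (minus strand) and for Srsf11-206 chr3:158024209-158024231 (minus strand). Srsf7-203 and Srsf11-206 read 28 and 23 bases into the exon before the stop codon was complete, and the letters before these come from the preceding exon. In 7 of the 8 the stop lay in an internal exon that overlaps no exon of any coding transcript of the gene, called a separate stop exon from here on. That exon was 358 bases long in Srsf9-205, 306 in Tra2a-202, 276 in Tra2b-206, 456 in Srsf3-201, 207 in Srsf4-203, 460 in Srsf7-203 and 109 in Srsf11-206. Srsf6-201 ended in a 268-base exon whose stop another transcript, classed as protein-coding, also uses.

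The same stretch follows for 5 members that held most of the TPM of their gene in the alignment-free tables, to show where their annotated frame closes. Rpl27a-205 did not lead its gene in the alignment-based tables, where its IsoPct was 14.2% and 3.66%.
Ppia-201: caaagacagcagaaaactttcgagctcTGA
Ndufa3-204: gggcctcgctataattatgcccatgatTAG
Mnat1-203: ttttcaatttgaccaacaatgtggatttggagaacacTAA
Rpl27a-205: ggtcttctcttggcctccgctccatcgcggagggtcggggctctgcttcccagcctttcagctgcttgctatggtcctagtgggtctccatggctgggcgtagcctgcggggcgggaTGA
Mrps14-201: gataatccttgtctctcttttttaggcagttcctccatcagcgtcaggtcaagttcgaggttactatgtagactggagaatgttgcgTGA
These lay at chr11:6418226-6418243 (plus strand) for Ppia-201, chr7:3619430-3619451 (plus strand) for Ndufa3-204, chr12:73179205-73179244 (plus strand) for Mnat1-203, chr7:109519226-109519345 (plus strand) for Rpl27a-205 and chr1:160196921-160197010 (plus strand) for Mrps14-201. Only the last 18 bases printed for Ppia-201 and the last 22 for Ndufa3-204 belong to the exon of the stop. The annotated frame covered 24.4% of the longest coding frame of the gene in Ppia-201, 38% in Ndufa3-204 and 30.1% in Mnat1-203. It covered 27.7% in Rpl27a-205 and 34.4% in Mrps14-201. The 120 bases printed for Rpl27a-205 hold no ATG in frame, and its stop ended at base 126 of the transcript. Its percent may therefore count a frame whose start is not annotated. Over all members the stop codon was TGA in 1140, TAA in 482 and TAG in 437, so TGA made up 55.4%, beside 50% of 20282 protein-coding transcripts past the same TPM threshold.

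The structure of the members followed their class. Of 2059 members with an annotated stop, 2045 had it more than 50 bases before the last junction, while 0.408% of protein-coding transcripts past the TPM threshold did; the class is itself assigned from such a distance, so this count describes the annotation. The median distance was 368 bases, and a median of 3 junctions followed the stop, with 446 members having exactly 1. The coding stretch had a median of 22.4% of the length of the longest frame of the gene, and of 26.1% in members with an annotated start. The stop lay in exon sequence of a coding transcript in 1083 members, in sequence outside coding exons in 799 and at the stop of a transcript classed as coding in 148, while 29 members had no coding partner in their gene. A separate stop exon carried the stop in 498 members. These were 484 different exons with a median of 122 bases, and 168 of them (34.7%) had a length divisible by 3. The start of the frame was not annotated in 589 members, and 37 were readthrough transcripts that join neighbouring genes.

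**Figure D1:**
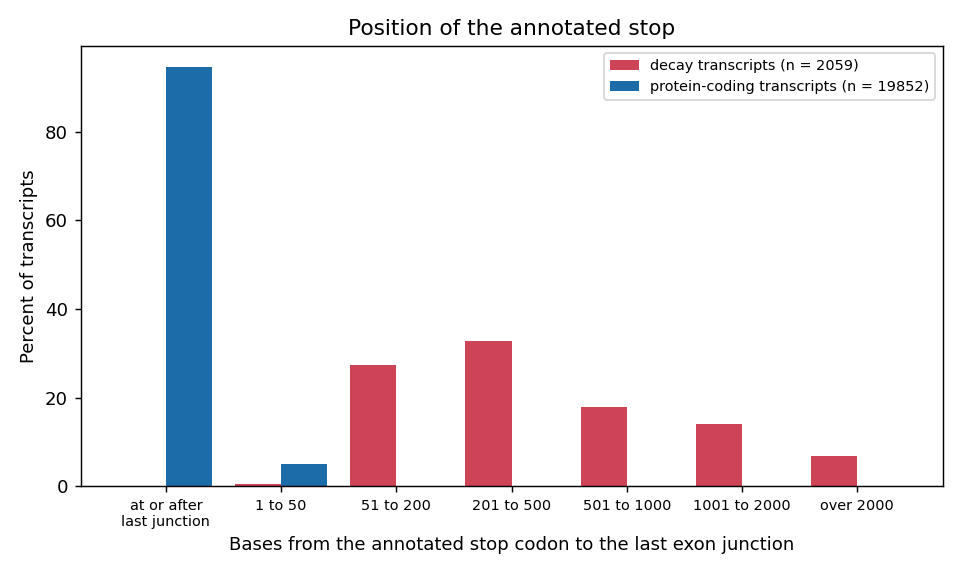
Position of the annotated stop relative to the last exon junction, in bases, as the percent of decay transcripts (red, n = 2059) and of protein-coding transcripts (blue, n = 19852) past TPM of 1 in both libraries. Most decay transcripts stop between 51 and over 2000 bases before the junction, with 32.9% at 201 to 500, and 94.6% of protein-coding transcripts stop at or after it.

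As a class the members were a small part of the transcript pool. They held 1.27% of all transcript TPM in replicate 1 and 1.42% in replicate 2 (1.35 ± 0.104%, SD, n = 2), and 1.64% and 1.67% of the estimated counts, which came to 485314 of 29554433 and 541233 of 32341517. Within their own genes they held 16.3% and 16.6% of the TPM. The median member had a TPM of 2.96 and 3.26, the highest, Ppia-201, 571 and 631. Most members were minor isoforms: the median share, meaning the percent of the gene's TPM held by the member, was 12.6% in replicate 1 and 12.4% in replicate 2, and the middle 50% of members lay between 6.69% and 21.9%. As the leading transcript of their gene in both libraries there were 211 members (10.2%), against 33.4% of all transcripts past the threshold. Depth was thin for many, with a median of 93.0 and 101.6 estimated counts and a lowest of 4 and 3.

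Markers of neurons, astrocytes, oligodendrocytes, microglia and endothelium were all above 0 in both libraries, and the summed TPM of the 8 neuronal markers was 1624 and 1892. Markers of neighbouring tissue differed: the 8 choroid plexus markers summed to 52.3 TPM in replicate 1 and 9.95 in replicate 2, and the 8 striatal markers to 211 and 78.8, none at 0. The part of this difference in the values below was not tested.

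At the edge of the threshold, Tmem44-207 was the lowest member, with TPM 1.35 and 1.00 in the respective libraries, followed by Renbp-210 (1.00 and 2.45) and E4f1-202 (1.31 and 1.00). Just outside were Bicd1-207 (3.29 and 0.999), Mob2-204 (0.999 and 2.21) and Hddc3-203 (0.999 and 1.15). All 6 had levels close to 1 in at least 1 library.

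Genes of splicing regulators often carried a member. Among genes with an annotated decay transcript that reached a gene TPM of 10 in replicates 1 and 2, 1452 of 2606 held a member, or 55.7%. Of the SR proteins 9 of 11 did, of the hnRNPs (heterogeneous nuclear ribonucleoproteins, RNA-binding proteins that often oppose SR proteins) 12 of 16, and of the other splicing factors and RNA-binding proteins 27 of 35. Since the TPM threshold chose the members and high genes pass it more easily, these are counts with no test. Cytosolic ribosomal proteins, among the highest genes, gave 15 of 18, with shares from 0.506% to 74.9%. Their 3 highest genes by alignment-free share were Rpl27a (73.5% and 76.4%), Rpl14 (55% and 55.6%) and Rpsa (51.4% and 43.8%). For all 3 the alignment-based tables gave other values, listed further below. The median share per ribosomal protein gene was 3.07%. It was 20.8% for SR proteins, 23.9% for hnRNPs, 11.7% for the other splicing factors and 14% over all genes with a member.

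Srsf9-205 had the highest share among SR protein genes. Its TPM was 20.9 and 22.8, out of a gene TPM of 39.7 and 45.4, and its share was 52.7% and 50.1% (51.4 ± 1.81%, SD, n = 2). The alignment-based tables, a separate quantification of the same reads, gave IsoPct (the authors' percent of gene TPM) of 46.8% and 51.8%. Both tables thus put about as much TPM on the poison-exon form as on all other forms of Srsf9 together, and its main coding transcript, Srsf9-201, had TPM 14.3 and 17.5.

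Tra2a and Tra2b encode transformer-2 splicing activators that bind purine-rich exonic enhancers. Tra2a-202 had TPM 6.87 and 10.7 and a share of 30.5% and 38.6%, with IsoPct 18.1% and 26.5%. Tra2b-206 had TPM 2.63 and 6.01 and a share of 9.18% and 18.2%, with IsoPct 8.2% and 17.6%. Both were higher in replicate 2 in both tables. The authors' bounds of the alignment-based TPM overlapped between the libraries for both, running from 1.18 to 4.53 and from 4.01 to 8.96 for Tra2b-206.

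Srsf3 and Srsf6 encode SR proteins that act in alternative splicing and mRNA export. Srsf3-201 had TPM 12.8 and 15.1, a share of 21.7% and 19.9% and IsoPct 17.6% and 21.8%, so the order of the libraries turned between the tables. Srsf6-201 had TPM 10.3 and 15.1, a share of 27.6% and 33.5% and IsoPct 21.9% and 28.9%. Srsf7-203 was near the threshold, with TPM 1.12 and 2.01. Srsf11-206 had TPM 6.0 and 5.66 alignment-free and 1.69 and 1.66 alignment-based.

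Srsf1, the founding member of the family, held 2 members with the same 39-base stretch before the stop. Srsf1-204 had TPM 5.13 and 9.71 and Srsf1-207 had 14 and 6.49, so the libraries ordered them oppositely. In the alignment-based tables Srsf1-204 had 15.1 and 15 and Srsf1-207 was listed at 0 in both. Their summed share was steadier, 19.3% and 16.5%, with summed IsoPct 14.3% and 15.1%. Srsf4 showed the like: Srsf4-203 and Srsf4-204 exchanged order between libraries, with TPM 1.92 and 4.36 against 4.31 and 2.43, while their summed share was 21.8% and 20.6%. By estimated counts, not scaled for length, the mean share moved by over 1.5 times in 5 of the 9 SR protein genes: to 17.2% in Srsf6, 32.4% in Srsf3, 7.98% in Srsf4, 3.78% in Srsf1 and 3.22% in Srsf11.

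**Figure D2:**
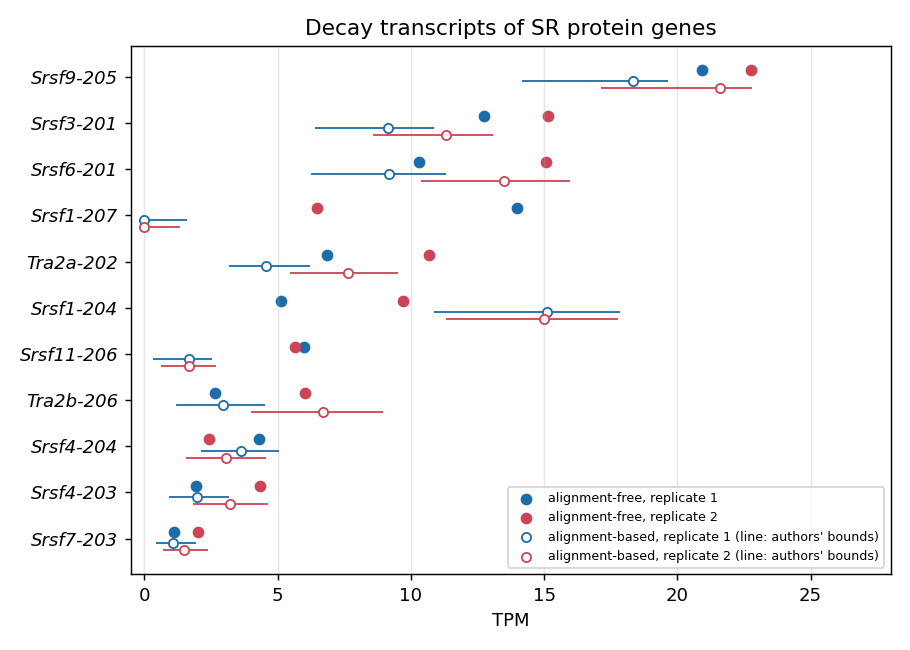
TPM of the 11 decay transcripts of SR protein genes in each library. Filled points are alignment-free values and open points alignment-based values with the authors' bounds as lines; Srsf9-205 is highest at 20.9 and 22.8, and Srsf1-207 is listed at 0 alignment-based.

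Among hnRNP genes, Hnrnpu and Hnrnpa1 had the highest shares. Hnrnpu encodes a nuclear matrix RNA-binding protein; its Hnrnpu-206 had TPM 60.6 and 68.3, a share of 37.3% and 40.6% and IsoPct 40.5% and 41.3%, above the coding transcript Hnrnpu-201 at 30.6 and 33.7. The frame of Hnrnpu-206 was 99.1% as long as the longest coding frame of the gene. Hnrnpa1 held Hnrnpa1-203 and Hnrnpa1-204, which together made up 38.1% and 41.9% of the gene, with IsoPct 35.8% and 40.5%. Hnrnph3-204 read 26.7% and 27.2% alignment-free but IsoPct of only 3.07% and 0.1%.

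Of the other RNA-binding proteins, Prpf4b, a kinase of the spliceosome, held members with 49.2% and 55% of its TPM (IsoPct 45.1% and 49%). Most of it was Prpf4b-208, whose coding frame is as long as the longest of the gene and whose stop is shared. Tardbp encodes TDP-43, which binds its own mRNA; its 3 members held 32.4% and 27.3%, with IsoPct 31.1% and 25.4%. The largest of them, Tardbp-228, had TPM 15.1 and 11.9, and the summed share was 17.2% by estimated counts. Rbm39 had 6 members that together held 30.3% and 32.5%, but IsoPct summed to 9.54% and 12.3%; all 6 had a separate stop exon.

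Of the 4 genes of decay and exon junction factors with an annotated decay transcript, 1 held a member, Smg1 (55.7% over all genes). Smg1 encodes the kinase that phosphorylates UPF1. Smg1-204 had TPM 3.94 and 3.51 and a share of 10.9% and 10.3%, and was listed at 0 in both alignment-based tables.

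In 59 of the 1452 genes at TPM of at least 10 the members held at least 50% of the TPM in both libraries. By IsoPct this was 63 genes, and 42 were in both counts. Gm20716, at 100%, is a readthrough gene annotated with the decay transcript alone. Next came Ndufa3, a subunit of respiratory complex I: Ndufa3-204 had TPM 198 and 216 and Ndufa3-203 22.2 and 30.4, together 96.6% and 97.4% of the gene, with IsoPct of 92.9% and 91.2% that rested on Ndufa3-204. The coding transcript Ndufa3-202 had TPM 4.19 and 2.46.

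Mnat1 encodes the assembly factor of the CDK-activating kinase. Mnat1-203 had TPM 8.69 and 10.1 and held 86.6% and 89.6% of the gene (88.1 ± 2.12%, SD, n = 2), with IsoPct 88.5% and 91.2%. Pik3cb, the catalytic p110 beta subunit of phosphoinositide 3-kinase, had 88.1% and 83.9% on Pik3cb-203 (IsoPct 79.6% and 74.1%). Both tables placed most of the TPM of these genes on a decay transcript.

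Ndufs4, another complex I subunit, held 85.3% and 86.2% on Ndufs4-204 and Ndufs4-202, with summed IsoPct 72.6% and 72.2%. Ndufs4-204 had TPM 36.5 and 40.8, and its stop lies in a 50-base separate stop exon. The coding transcript Ndufs4-201 had TPM 7.89 and 8.55. Over the nuclear genes of the respiratory chain as listed, 11 of 15 with an annotated decay transcript held a member (55.7% over all genes), with a median share of 4.13%. Ndufa3 is not on that list, on which the second highest share, that of Ndufa10, was 29.8% and 35.4%.

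Ppia encodes cyclophilin A, an abundant prolyl isomerase often used as a reference gene. Ppia-201 had TPM 571 and 631 and a share of 78.5% and 76.7%, with IsoPct 83.8% and 83.2%. The coding Ppia-202 had TPM 147 and 183 alignment-free and 3.05 and 6.87 alignment-based. Ppia-201 itself had 583 and 608 alignment-based, and the gene 727 and 823 alignment-free against 695 and 731. Ppia-201 has no exon base of its own and 1 junction of its own, so its level is uncertain. Ppia has many processed pseudogenes, and whether reads were split between them was not tested.

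Other genes among the 20 highest came from several functions. Mrps14 (81.4% and 76%) and Mrpl32 (61.8% and 79.2%) encode mitochondrial ribosomal proteins. H2-Eb1, an MHC class II chain, read 83.9% and 77.1%, Syt16, a synaptotagmin, 74% and 78.8%, and Slco1c1, a thyroid hormone transporter of the blood-brain barrier, 68.8% and 79.9%. Ppp1cb, a catalytic subunit of protein phosphatase 1, read 69.7% and 69.5%, shared by Ppp1cb-205 and Ppp1cb-203. By estimated counts, which are not scaled for length, 4 of the 20 moved by over 1.5 times: Mrps14 to 50.5%, Dirc2 to 42.2%, Mrpl32 to 29.9% and Ppp1cb to 32.3%. Dirc2 held 70.1% and 71.5% by TPM. Mtpap, a mitochondrial poly(A) polymerase, was the least steady of the 20, at 67% and 85% (IsoPct 66.3% and 84.3%).

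**Figure D3:**
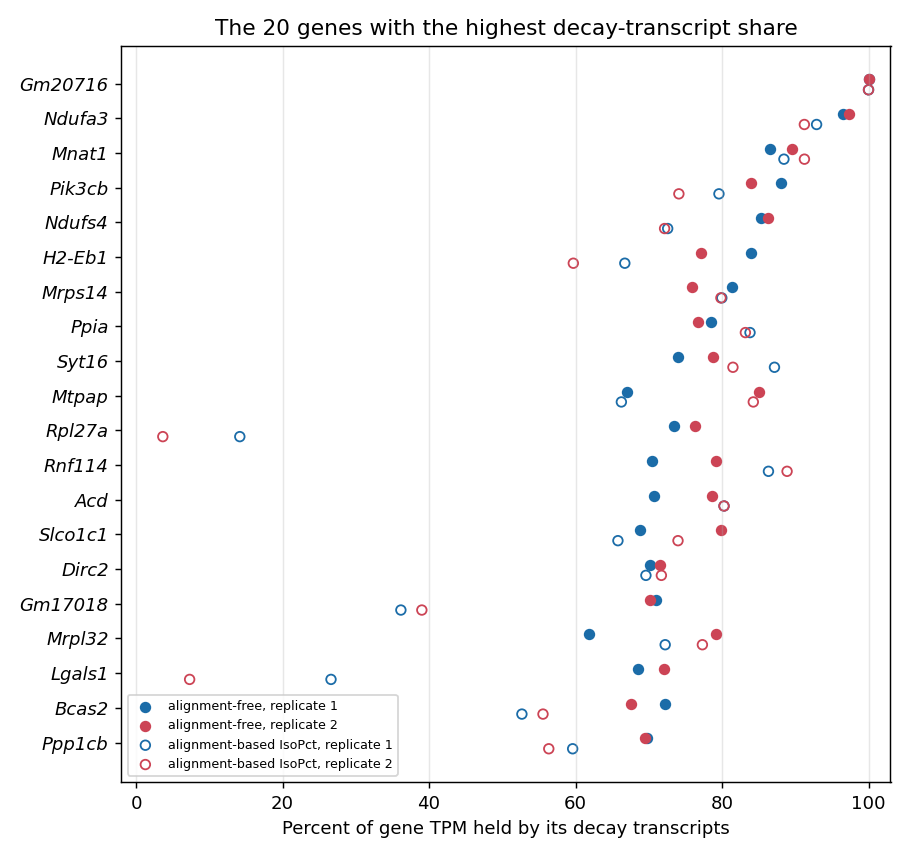
Percent of gene TPM held by decay transcripts in the 20 genes with the highest share at gene TPM of at least 10. Filled points are alignment-free shares and open points IsoPct for each library; Ndufa3 lies above 90% in all 4 values, while Rpl27a falls from 73.5% and 76.4% to 14.2% and 3.66%.

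In genes of synapses the members were minor with few exceptions. Gabra2 encodes the alpha-2 subunit of the GABA-A receptor, and Gabra2-204 had TPM 21.7 and 24.3, above the coding Gabra2-203 at 15.8 and 17.9. With Gabra2-201 it held 50.8% and 50.6% of the gene, and summed IsoPct was 41.3% and 40.5%. Shank3, a postsynaptic scaffold, read 18.1% and 17%, with IsoPct 6.08% and 6.77%. Of the postsynaptic list 8 of 11 genes with an annotated decay transcript held a member (median share 11.1%), of synaptic vesicle and release genes 6 of 10 (10.3%) and of ion channels 6 of 9 (8.73%). All 3 medians were below the 14% over all genes, and the share of genes with a member over all genes was 55.7%. By summed IsoPct the medians were 11.6%, 3.68% and 3.44% in the same order, beside 8.565% over all genes. The postsynaptic list thus lay above all genes in the alignment-based tables.

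Erc1, a scaffold of the presynaptic active zone, led the vesicle list with Erc1-206 at TPM 4.31 and 8.04. Its share was 23.3% and 36.7% and its IsoPct 42.9% and 41.9%. Cacna1d, a calcium channel of the L type, led the ion channels with 16.4% and 21.7% on Cacna1d-208, or 31.6% by estimated counts.

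Of the Alzheimer disease genes listed, 3 of 6 with an annotated decay transcript held a member, a share near the 55.7% over all genes. Adam10 encodes the main alpha-secretase, which cleaves APP within the amyloid sequence. Adam10-202 had TPM 7.90 and 12.1, a share of 29.3% and 38.9% and IsoPct 16.9% and 26.5%. Clu, an apolipoprotein made by astrocytes, held Clu-205 at TPM 96.2 and 139, a share of 13.6% and 19.3%, but alignment-based TPM of 0.81 and 0.65, and its share by estimated counts was 4.07%. Ncstn, a gamma-secretase subunit, read 6.73% and 3.98%.

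Mobp-204 was the member of an oligodendrocyte marker gene, that of myelin-associated oligodendrocytic basic protein. Its TPM was 105 and 108 and its share 48.1% and 50.4%, with IsoPct 65% and 64.4% and 76.7% by estimated counts. It carries 1817 bases in no other transcript of the gene, and its alignment-based TPM of 117 and 113 lay close to the alignment-free values. Prdx6-208, from a peroxiredoxin gene, had TPM 133 and 137 and a share of 53% and 52.5%, with IsoPct 59.3% and 60%.

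Some lists of general cell upkeep and signalling had median shares close to the 14% over all genes. Other upkeep lists lay lower: cytosolic ribosomal proteins at 3.07%, nuclear genes of the respiratory chain at 4.13% and polyamine and amino acid metabolism at 5.56%. The counts below stand beside the 55.7% of all genes with an annotated decay transcript. Of translation factors 6 of 8 genes with an annotated decay transcript held a member (median share 14.6%) and of chaperones 6 of 7 (12.6%). For ubiquitin and proteasome genes it was 7 of 12 (13.9%) and for signalling kinases and phosphatases 9 of 12 (14.7%). By summed IsoPct the medians were 6.68%, 12.1%, 6.55% and 8.625% in the same order, beside 8.565% over all genes. Eif4a2 encodes an RNA helicase of translation initiation, and Eif4a2-210 had TPM 80.5 and 92.7 against 139 and 146 alignment-based. The members of Eif4a2 held 19.1% and 21.1%, or 31.7% by estimated counts. Psma3-201, of a proteasome core subunit, had TPM 44.6 and 53.9 and a share of 41.9% and 44.4%, with IsoPct 11.4% and 14.7%. Cct8-209, of a chaperonin subunit, held 34.9% and 37.7%, with IsoPct 23.8% and 19.5%. Lars2-209, of mitochondrial leucyl-tRNA synthetase, had TPM 117 and 129 against 54.5 and 54.6 alignment-based, yet it led the gene in both tables, with a share of 64.3% and 59.5% and IsoPct 84.8% and 80.5%.

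**Figure D4:**
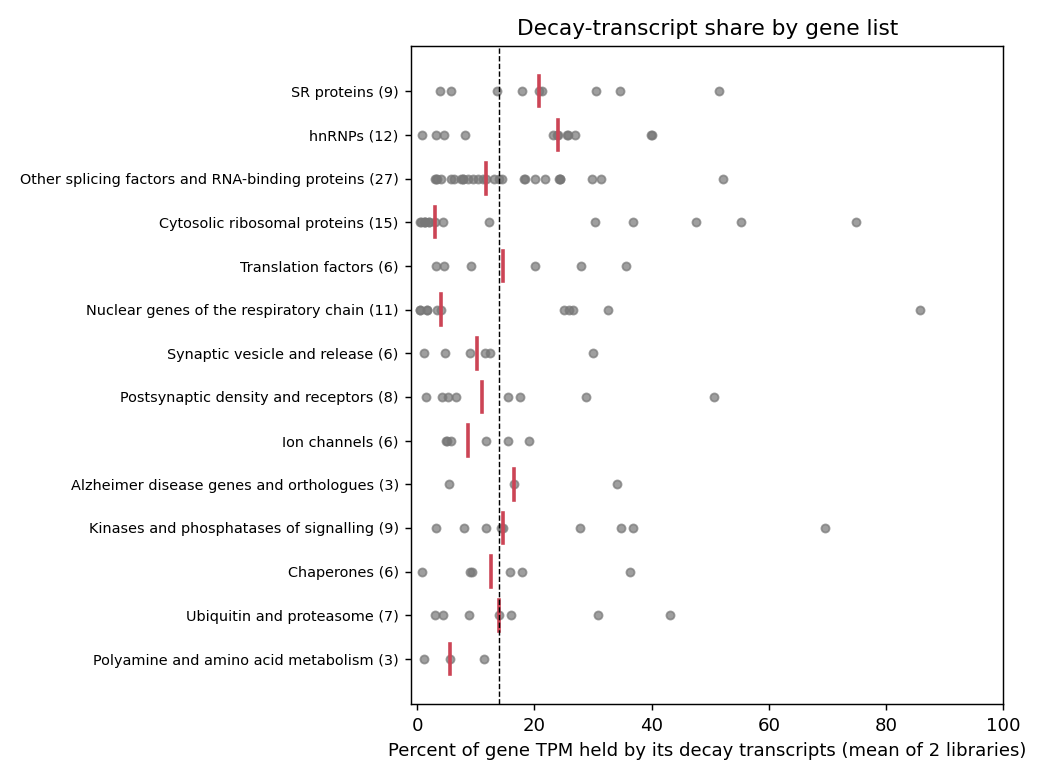
Percent of gene TPM held by decay transcripts (mean of 2 libraries) for each gene at TPM of at least 10 that holds a member, by gene list, with the number of genes in parentheses. Red bars are list medians and the dashed line is the 14% median over all genes; hnRNPs sit at 23.9% and cytosolic ribosomal proteins at 3.07%.

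The alignment-based tables placed 1265 of the 2061 members (61.4%) past TPM of 1 as well, against 78.4% of all transcripts past the alignment-free threshold. Among processed transcripts without a frame it was 61.8%, close to the members. The alignment-based tables listed 159 members at 0 in both libraries, and 759 had the authors' lower bound at or above 1 in both. The median IsoPct was 7.84% and 7.45%, below the alignment-free median of 12.6% and 12.4%. The share was above IsoPct in both libraries for 1297 members and below it for 479, and the means of the libraries were within 10 points for 1600 (77.6%). Alignment-free TPM chose the members, so the rule itself favours a share above IsoPct. Over all transcripts past the alignment-free threshold the median share was 20.6% and the median IsoPct 16.5%, from means of the libraries. Across members the Spearman correlation of share and IsoPct was 0.675, where the libraries' own shares correlated at 0.897; members of a gene share reads and are not independent points. The same correlation was 0.877 over protein-coding transcripts, 0.807 over retained introns and 0.601 over processed transcripts without a frame.

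Agreement between the tables differed with the reads behind a member. Past TPM of 1 in the alignment-based tables were 31.6% of the 316 members with under 20 estimated counts in the lower library, 53.1% of those with 20 to 99, 75.4% of those with 100 to under 500 and 95.4% of the 173 with 500 or more. By length the percent that passed was 39.8% for members of up to 500 bases and 71.2% for those over 2000. Members with a separate stop exon passed in 50.8%, the others in 64.7%. No exon base of its own had 939 members, and 219 had neither base nor junction of their own.

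The disagreements were large in single genes. Tbca, a tubulin-folding cofactor, was the only gene of the 59 with summed IsoPct under 10% in both libraries. Tbca-203 had TPM 36.8 and 49.8 (67.5% and 63.7%) and was listed at 0 in both alignment-based tables, where the coding Tbca-201 had 39.9 and 57.8. Rpl27a-205, of a ribosomal protein, had TPM 144 and 171 against 10.3 and 2.5 alignment-based, and the gene as a whole 195 and 223 against 73 and 68.3. Lgals1-202, of galectin-1, held 68.5% and 72.1% against IsoPct 26.6% and 7.32%. Bnip1-202 held 71.8% and 47.1% and was listed at 0 alignment-based.

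In the other direction, Arf4-203, of a small GTPase of the Golgi, held 10.5% and 21.8% against IsoPct 66.2% and 61.4%. Rpsa-206 held 51.4% and 43.8% against 81.5% and 78.9%, and Rpl12-201 4.15% and 4.69% against 43.2% and 53.5%. Gm1673-204 held 8.66% and 16.4% against 61.4% and 57.1%. The shares of Rpl27a, Rpl14, Rpl12 and Rpsa are therefore uncertain. As whole genes, Rpl12 had TPM 51.3 and 56.6 against 56.9 and 61.7 alignment-based, and Rpsa 187 and 177 against 230 and 204. Ribosomal protein genes have many processed pseudogenes, and whether reads were split differently between copies was not tested.

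**Figure D5:**
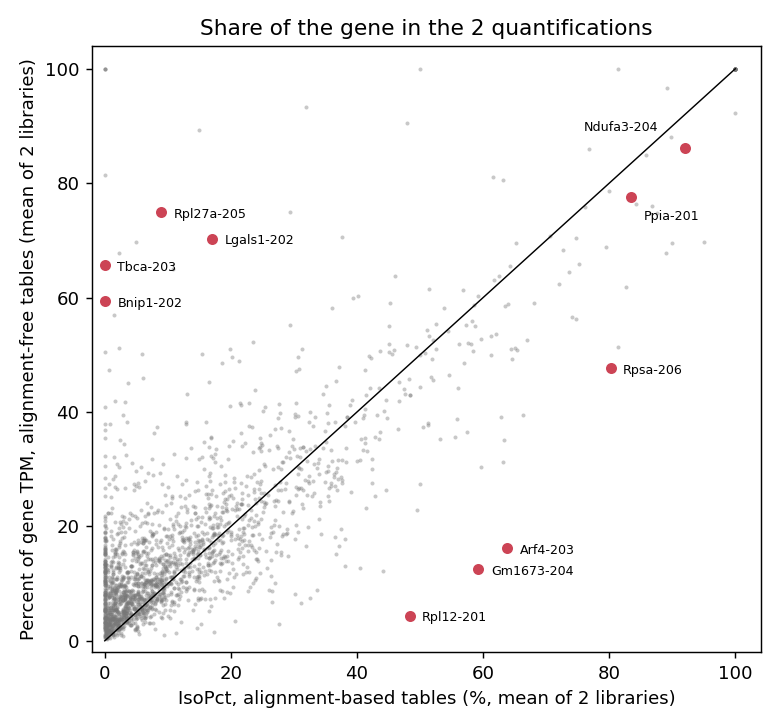
Share of the gene's TPM held by each of the 2061 members in the alignment-free tables (vertical axis, percent) against IsoPct of the alignment-based tables (horizontal axis, percent), both as means of the 2 libraries. The line marks equal values; Tbca-203 sits at 0 on the horizontal axis and Arf4-203 far below the line.

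Between the libraries, 190 members (9.22%) were more than 2-fold apart in TPM, against 6.87% of all transcripts past the threshold. Among processed transcripts without a frame it was 11.6%. Higher in replicate 1 were 64 members and higher in replicate 2 were 126. The same split was not counted over all transcripts. Their median log2 ratio of replicate 2 over replicate 1 was also above 0, at 0.107, beside 0.123 for the members. The percent more than 2-fold apart differed with depth: 22.5% of members with under 20 estimated counts were that far apart, and 0.578% of those with 500 or more. The extremes with at least 20 counts were Actg1-206, of gamma-actin, at TPM 3.27 and 33.8, and Dgkz-211, of a diacylglycerol kinase, at 1.65 and 13.9, both higher in replicate 2. Fbxo22-205, of an F-box ubiquitin ligase subunit, fell the other way, at 5.74 and 1.14. In the alignment-based tables Actg1-206 was at 0 and 1.22, and Dgkz-211 and Fbxo22-205 were listed at 0 in both libraries, so no gap could be read there for the latter pair.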

How the data were processed

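Strand-specific total RNA-seq was deposited for 2 libraries on mm10 with GENCODE M21, per the labels. Aligner and quantifier were not given in the sources used here. Alignment-free tables hold estimated counts and TPM per transcript, deposited by the authors and scaled by them for length and depth, per the file headers. The alignment-based tables hold expected counts, TPM and the percent of gene TPM per transcript (IsoPct), deposited by the authors. Bounds of each TPM are the authors' signal interval, per the file headers.

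The 97 spike-in and phiX entries were left out of the transcript counts. Shares were computed as transcript TPM over the summed TPM of its gene. Stops, junctions and separate stop exons came from the annotation of the same release, which matched every transcript. No test was run, since there is 1 group, and values chosen by the rule are descriptions; the SD is over 2 libraries. Totals of 29554433 and 32341517 estimated counts set the depth, and the count of reads behind a member limits its precision.

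The members and the 22 gene lists were chosen with earlier results of these data known. Genes were named by a rule: the 20 highest shares at gene TPM of at least 10, the 10 highest members by TPM, the 3 highest shares of each list, every SR protein and decay factor gene with a member, the 5 largest differences from IsoPct and between libraries in each direction (for the last, with at least 20 estimated counts in both), and the 3 transcripts on either side of the threshold. Some genes that the rule took are left out and are not reported here, and other transcripts of a named gene are given as partners. Alternatives covered TPM thresholds, estimated counts, IsoPct, posterior mean TPM, other denominators and leaving out each library. The steps were tested on simulated data. Python 3.11.15, numpy 2.4.6, pandas 2.3.3, scipy 1.17.1 and matplotlib 3.10.9 were used.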

Additional observations from a re-analysis of the deposited data

How the results depend on the processing

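The number of members was 1290 at TPM of at least 2, 2817 at 0.5 and 1543 by alignment-based TPM, and 2527 to 2584 with either library alone. Their percent of transcript TPM, 1.35%, became 1.66% by estimated counts, 1.03% by alignment-based TPM and 2.95% over nuclear protein-coding genes, and 1.27% to 1.42% with either library alone. The median share, 12.5%, became 7.76% by estimated counts, 7.64% by IsoPct, 16.6% over protein-coding and decay transcripts only and 10.8% in genes at TPM of at least 10, and 12.4% to 12.6% with either library alone. Genes with at least 50% on members numbered 36 at gene TPM of at least 20, 80 at 5, 60 by estimated counts and 63 by IsoPct, and 70 to 85 with either library alone. Members more than 2-fold apart fell from 190 to 117 with 0.5 added to each TPM, and to 119 of 1745 with at least 20 estimated counts in both; 6.82% of those 1745 were that far apart, beside 4.38% of all transcripts with as many counts. The 1265 members past TPM of 1 in the alignment-based tables became 1495 at 0.5 and 1388 by posterior mean TPM, and 1419 to 1441 with either library alone, and 2056 members had the stop before the last junction at any distance. Of 92 named genes, 43 had IsoPct within 1.5 times the share, 41 lower and 8 higher; by estimated counts the share was over 1.5 times lower in 28 and higher in 5. The cause of these shifts was not tested. No paired analysis was possible because there is 1 group. Leaving out a library could not be done for the ratio between libraries. Members with few estimated counts are limited by depth.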
